A study of Mus musculus with 20 samples.

Results

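Aortas of untreated mice from 2 experiments of the same study were compared: 3 arrays of wild-type littermates of PPARγ P465L knock-in mice, and 3 arrays of chow-fed controls for rosiglitazone treatment. The 6 arrays were chosen by their titles, out of 20 arrays in the series. Each array was an Affymetrix Mouse Genome 430 2.0 GeneChip hybridized with biotin-labelled RNA pooled from 8 aortas, so that n = 3 counts pools and the p-values measure the spread between pools. The other 14 arrays came from P465L mice and from mice given rosiglitazone.

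The chow controls are labelled strain C57, given as C57BL/6J in the series' design text, and received chow with the vehicle for rosiglitazone. The wild-type littermates received standard chow. They carry no P465L mutation, and their strain is not given in the sources used here. Adult mice are named in the design text, and neither group received a drug. Of the remaining groups, the 3 P465L pools carry a targeted dominant negative mutation in Pparg, and the 11 rosiglitazone pools came from C57BL/6J mice that ate this PPARγ agonist with their food for 2 or 14 days, at 3 or 10 mg per kg and day. Strain or colony, the vehicle and every other difference between the experiments follow the same split, so they cannot be told apart here. The comparison asks how far the baselines of the experiments differ.

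The aorta is a tube of smooth muscle lined by endothelium and wrapped in an adventitia of fibroblasts and resident macrophages, and dissected mouse aortas usually carry some perivascular fat, much of it brown-like around the thoracic segment. PPARγ is the nuclear receptor that drives fat cell genes, and PPARα drives genes of fatty acid oxidation. MHC class II molecules display peptides taken up by antigen-presenting cells, and interferon-γ raises both these molecules and the GTPases that defend cells against intracellular pathogens. In pooled tissue RNA, fewer cells of a type and less RNA per cell cannot be told apart.

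The values are MAS5 signals, a brightness estimate per probe set that the authors scaled to a common trimmed mean on every array. Levels are given here as signals, and differences as log2(signal + 72) of wild-type littermates minus chow controls with the standard error of the fit, so a fold is a ratio of signal + 72. A gene was called when the adjusted p of limma's moderated test, after Benjamini-Hochberg adjustment over all 11081 genes tested, was under 0.05. Defining markers of the aortic wall were present in all 6 arrays. The summed signal of 5 smooth muscle markers (Acta2, Myh11, Tagln, Cnn1 and Smtn) was 418247 to 434587 in the littermates and 328608 to 378435 in the chow controls. That of 5 endothelial markers (Pecam1, Cdh5, Kdr, Tek and Vwf) was 26037 to 33157 and 29125 to 35694. Array pairs correlated at 0.974 to 0.980 within the littermates, 0.977 to 0.983 within the controls and 0.953 to 0.973 between the groups. The 3′ to 5′ ratio of the Gapdh control probe sets was 0.795 to 0.828 in the littermates and 0.895 to 0.960 in the chow controls, without overlap, and its part in the differences was not tested.

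The untreated groups differed in 719 of 11081 genes. These were 6.49% of the genes tested, with 288 genes higher in the wild-type littermates (2.6%) and 431 lower (3.89%). The unadjusted p was under 0.05 for 2493 genes, against 554 expected if no gene differed. Most differences were small. By the fitted difference of the brightest probe set, 83 called genes were over 2-fold higher and 45 over 2-fold lower, and 7 and 2 genes passed 4-fold. The median difference over all genes tested was -0.04 and the median standard error was 0.15. In 714 of the 719 called genes, the 3 arrays of one group lay wholly above those of the other, as they did for 27.8% of all genes tested. The 5 called genes whose arrays overlapped were 2510039O18Rik, Arnt, Bcar1, Ckb and Dnajb5. Leaving out an array lowered the count to between 279 genes, without littermate pool B, and 620 genes, without littermate pool C. It was 322 without chow control pool C. In 30 of the 719 the mean of one group lay under the level needed for testing, a signal of about 352, so these genes were tested through the brighter groups. For them the fitted difference depends on the offset, and a fold, where one is given, is a lower bound against that level. Of the genes with values below they are Abcd2, Gdpd3, Il7r, Rbp7, Thg1l and Wwc1, under it in the controls, and Aif1, Lingo1, Rab6b, Rasl10b, Rnf157 and Usp18, under it in the littermates. The 2-fold and 4-fold counts above include such genes. Wwc1 and Rasl10b, both counted over 4-fold, were at least 2.61-fold higher and at least 2.82-fold lower against that level.

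**Figure D1:**
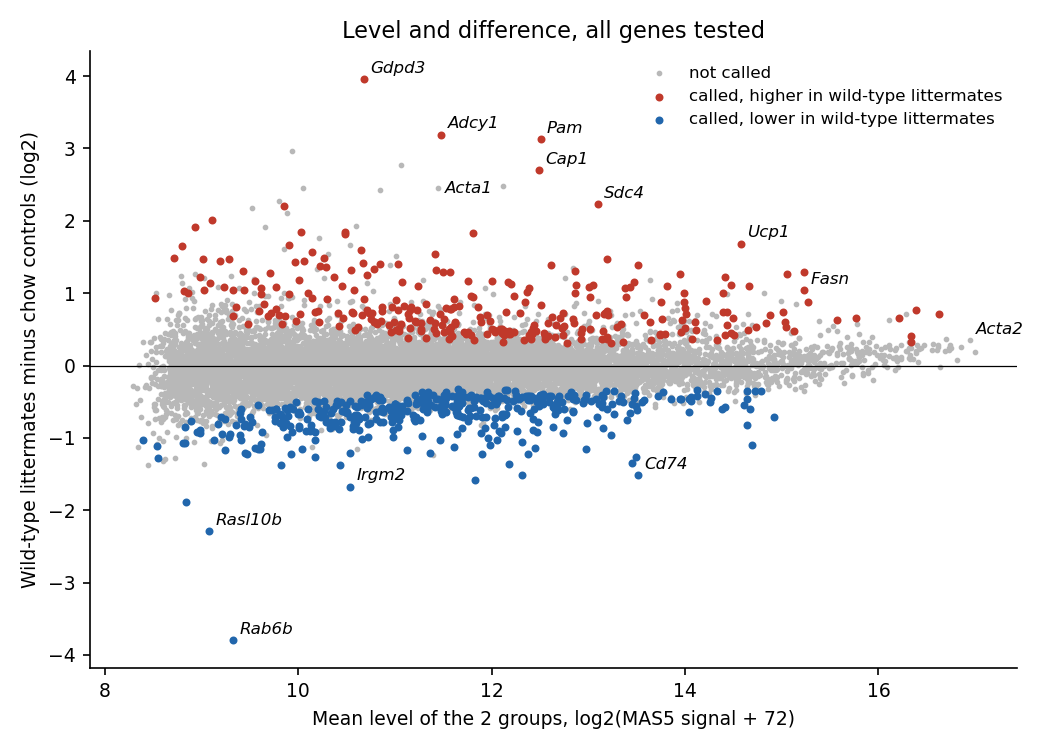
Difference between the groups (y axis, log2, wild-type littermates minus chow controls) against the mean level of the 2 groups (x axis, log2(signal + 72)) for 11081 genes, 1 point a gene; red points are the 288 genes called higher and blue points the 431 called lower. Gdpd3 at 3.96 and Rab6b at -3.79 lie farthest from 0, while the skeletal muscle gene Acta1 at 2.47 is far from 0 without being called.

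The largest rises were in genes with unlike roles. Gdpd3 (chr7:126766414-126775645; all coordinates are GRCm38.p6, from RefSeq), a glycerophosphodiester phosphodiesterase, gave signals of 4514, 11208 and 5233 in littermate pools A, B and C and 257, 371 and 425 in chow control pools A, B and C. The fitted difference was 3.96 ± 0.47 (at least 15.3-fold higher; adjusted p = 2.42e-05). Every littermate pool was over 10 times as bright as every control pool. Adcy1 (chr11:7063433-7178506), an adenylyl cyclase stimulated by calcium and calmodulin, gave 8978, 7061 and 9849.8 in the littermates and 889, 813 and 917 in the controls, a difference of 3.19 ± 0.14 (9.13-fold; adjusted p = 5.02e-12). Its pools were tight within each group. Pam (chr1:97821091-98095853), the enzyme that amidates peptide hormones, gave 18488, 16143 and 16929 against 1185, 2347 and 2432 (3.13 ± 0.23; 8.76-fold; adjusted p = 5.12e-08). Cap1 (chr4:122859048-122886076), a regulator of actin turnover, gave 16947, 12696 and 14512 against 1791, 2534 and 2292 (2.70 ± 0.20; 6.51-fold; adjusted p = 5.12e-08). For Pam and Cap1, as for Gdpd3 and Adcy1, the lowest littermate pool was several times brighter than the highest control pool.

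These differences were present again in the arrays of the treated and mutant mice. The P465L pools gave 5424, 5160.3 and 5221 for Gdpd3, while the 11 rosiglitazone pools ranged from 43.9 to 499 with a median of 221. For Adcy1 the P465L pools gave 7783, 7931 and 8877, and the rosiglitazone pools ranged from 719 to 1224 with a median of 898. For Pam the same groups gave 13904, 15336 and 15331, and values from 806 to 1969 with a median of 1648. The mutant pools thus lay with the wild-type littermates and the rosiglitazone pools with the chow controls, without overlap in any of the 3 genes. Cap1 showed the same order, with 12446, 11693 and 13110 in P465L pools and rosiglitazone pools from 1009.8 to 2386 with a median of 1544.

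Sdc4, the cell surface proteoglycan syndecan-4, was read by 2 probe sets that disagreed. The brighter gave 19826, 19810.3 and 17159.8 in the littermates and 2542, 5579 and 4414 in the controls, a difference of 2.23 ± 0.21 (adjusted p = 2.06e-06). The other gave 1710.5, 1173.5 and 1518.5 in the littermates and 2824, 3304 and 2709.8 in the controls, a difference of -0.98, so no direction is given for the gene. Among the other large rises, Tmem87a, a Golgi membrane protein, gave 1898, 1988 and 1842 against 395, 284 and 412 (2.20 ± 0.40; adjusted p = 0.00283). Both groups were tight and far apart. Serpina1b, an α1-antitrypsin made mainly in liver, rose by 1.84 ± 0.30, from 427, 411 and 624 to 1558, 2324 and 1909.8. Its probe sets are of a kind that can also bind related sequences, so the copies of this gene family cannot be separated. Ptprr, a tyrosine phosphatase that acts on MAP kinases, rose by 1.84 ± 0.20 and Rbm45, an RNA-binding protein, by 1.82 ± 0.28. Abcd2, a peroxisomal fatty acid transporter, rose by 1.91 ± 0.36. Its 3 other probe sets, all under the level needed for testing, also had higher means in the littermates (0.65 to 2.32). Wwc1, a Hippo pathway protein also called KIBRA, rose by 2.01 ± 0.29, but its 3 other probe sets, all under the level needed for testing, gave -0.25, 0.31 and 0.56.

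The largest fall was in Rab6b (chr9:103111667-103185276), a small GTPase of Golgi transport best known in neurons. Its signals were 199, 25.4 and 124 in the littermates and 2328, 2267 and 2371 in the controls, a fitted difference of -3.79 ± 0.26 (at least 5.64-fold lower; adjusted p = 1.4e-08). The control pools lay close together, while all littermate pools were near the dim end of the arrays. Its 3 other probe sets also had lower means in the littermates, by -0.85, -1.43 and -2.44. Of these only the probe set at -0.85 was above the level needed for testing. The P465L pools, at 137, 255 and 268, again lay with the littermates, and the rosiglitazone pools ranged from 1311 to 1894 with a median of 1554. Rasl10b, a Ras-like GTPase, fell from 1284, 920.2 and 1206 to 351, 142 and 89.4 (fitted difference -2.29 ± 0.38, at least 2.82-fold lower; adjusted p = 0.00112). Rnf157, a ubiquitin ligase, fell from 911, 822 and 712 to 273, 75.7 and 194 (fitted difference -1.89 ± 0.30, at least 2.08-fold lower; adjusted p = 0.000737). For both genes every littermate pool was below every control pool.

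Among brighter genes, Mcm6 (chr1:128331575-128359705), a subunit of the replicative DNA helicase, gave 3009, 2762 and 2706 in the littermates and 8384, 7670.2 and 6198 in the controls (-1.36 ± 0.15; adjusted p = 1.33e-05), and its second probe set above the level filter gave -1.31. No other of 14 cell cycle genes tested was called, and the median of that list was -0.07. Adam11, a disintegrin family protein, fell from 1794, 2244 and 2454 to 739, 754 and 858 (-1.38 ± 0.15; adjusted p = 1.33e-05). Acan, the large proteoglycan aggrecan, fell from 1719.6, 1743 and 1678 to 601, 794 and 636 (-1.26 ± 0.18; adjusted p = 0.000253). In each of these genes the groups were well apart. Malat1, a nuclear long noncoding RNA, fell from 13024, 21173 and 20212 to 8930.1, 6406 and 5863 (-1.34 ± 0.30; adjusted p = 0.0115) by its brightest probe set. Its 6 other probe sets ran from -1.46 to 0.19, with 3 of them above 0. Lingo1, a membrane protein of neurons, fell by 1.27 ± 0.22 between the untreated groups but differed by only -0.03 between P465L and rosiglitazone pools (adjusted p = 0.919). Wwc1 was at 0.50 there (adjusted p = 0.14), and the other 22 of the 24 genes with the largest differences were called in both contrasts with the same sign.

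**Figure D2:**
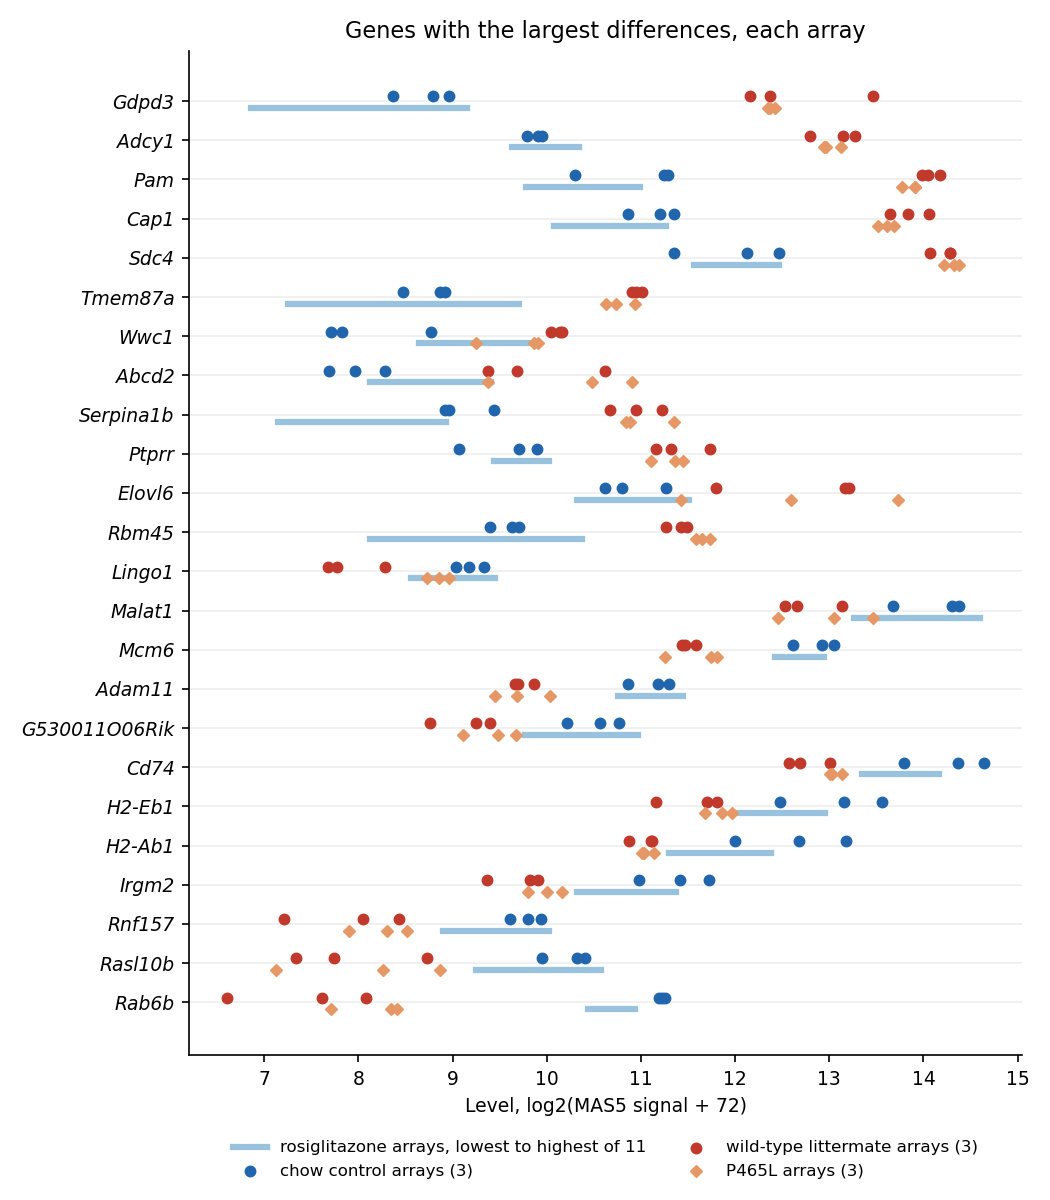
Level of the 12 genes with the largest rise and the 12 with the largest fall (x axis, log2(signal + 72)), 1 row a gene; red circles are the 3 wild-type littermate pools, blue circles the 3 chow control pools, orange diamonds the 3 P465L pools, and the light blue bar the range of the 11 rosiglitazone pools. For Gdpd3, Adcy1, Pam, Cap1, Sdc4 and Rab6b the P465L pools sit beside the littermates and the rosiglitazone bar covers the side of the chow controls.

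The contrast of the P465L group with the mean of the 4 rosiglitazone groups uses none of the 6 untreated arrays, although genotype and drug differ in it as well. It called 1909 of 11081 genes (17.2%). Of the 719 genes called between the untreated groups, 657 (91.4%) had the same sign there, against 68.4% of all genes tested. Called there with the same sign were 404 genes, which is 56.2% of the 719 and 21.2% of the 1909. They comprised 145 genes higher and 259 lower in the littermates. Among genes not called between the untreated groups, 14.5% were called in the second contrast. Only 7 of the 719 were called with opposite signs, and among them Elovl3, Rbp7 and Fabp4 are fat cell or PPAR target genes and Cycs, cytochrome c, belongs to oxidative phosphorylation.

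**Figure D3:**
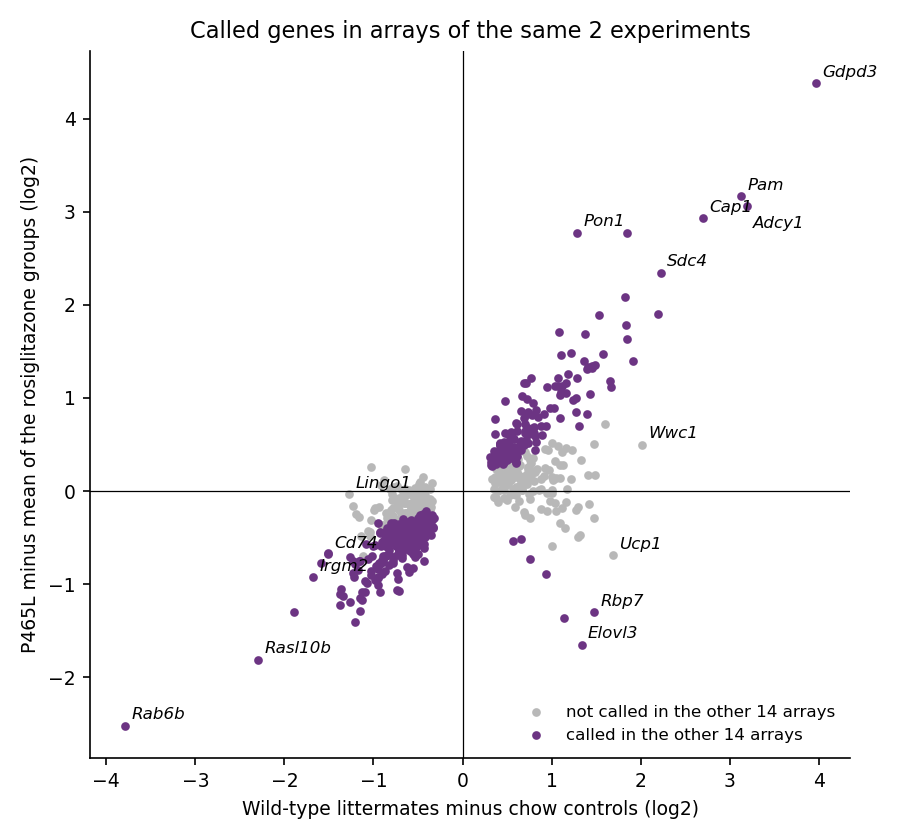
Difference of P465L pools minus the mean of the rosiglitazone groups (y axis, log2) against wild-type littermates minus chow controls (x axis, log2) for the 719 genes called between the untreated groups; purple points were also called in the other 14 arrays. Gdpd3, Pam, Adcy1 and Cap1 lie together at the upper right and Rab6b at the lower left, while Elovl3 at -1.65 and Rbp7 at -1.30 on the y axis lie below 0 on the right.

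MHC class II genes were lower in the wild-type littermates. Of 11 members tested, 6 fell and none rose, and the list's median was -0.85 (-0.04 over all genes). The 6 were H2-Ab1, H2-Eb1, H2-Aa, Cd74, H2-DMa and Ctss. For 2 of them, the class II chain genes H2-Aa and H2-Eb1, the promoter just before the gene start is shown, since CTGATTGG, the core of the Y box known from class II promoters, lies in both. Sequences are from RefSeq (GRCm38.p6), 5′ to 3′ on the gene's strand, with the match in capitals, for H2-Aa on the minus strand (chr17:34287824-34287973) and H2-Eb1 on the plus strand (chr17:34305717-34305866).
H2-Aa: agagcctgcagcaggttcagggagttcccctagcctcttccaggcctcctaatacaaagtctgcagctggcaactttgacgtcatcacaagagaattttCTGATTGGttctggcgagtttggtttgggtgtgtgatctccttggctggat
H2-Eb1: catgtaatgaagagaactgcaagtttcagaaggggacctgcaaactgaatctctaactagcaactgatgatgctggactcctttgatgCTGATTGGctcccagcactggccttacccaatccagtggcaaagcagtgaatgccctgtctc
The match began at position -51 in H2-Aa and -62 in H2-Eb1, counted back from the gene start. Searched on both strands, the motif was in 2 of the 8 tested members with a promoter in the table, and in 454 of 8982 tested genes that had one (5.05%). Over all 32851 promoters, 1039 (3.16%) held it in the same 150 bases.

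H2-Aa, the α chain partner, gave 6402, 8070.3 and 7767 in littermate pools A, B and C and 21629.9, 13616 and 19183 in control pools A, B and C. It fell by 1.26 ± 0.16 (adjusted p = 3.74e-05), and its 3 other probe sets gave -1.45, -1.69 and -2.49. H2-Eb1, a β chain, gave 2220.5, 3503 and 3249 against 12017, 5649 and 9041 (-1.51 ± 0.23; 2.85-fold lower; adjusted p = 0.000418). Control pool B was the lowest control for both genes and still above every littermate pool. H2-DMa, which helps load peptide, gave 682, 834 and 719 against 1611, 1149.7 and 1637 (-0.90 ± 0.18; adjusted p = 0.00459). Ctss, the protease cathepsin S that trims the invariant chain, gave 3450, 5534 and 5268 against 9126, 8801 and 7464 (-0.85 ± 0.16; adjusted p = 0.00357). The groups did not overlap in either gene. The 5 members not called included 3 subunits of the RFX factor that binds class II promoters: Rfx5 at -0.13, Rfxap at 0.06 and Rfxank at 0.34. The peptide loading gene H2-DMb2 was at 0.21 and the thiol reductase Ifi30 at 0.12.

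The MHC class II result did not hang on a single pool. All 6 calls stood when any of the 6 arrays was left out, with the median between -0.64 and -0.97. All 6 were also called lower in P465L than in rosiglitazone pools, by -0.40 for Ctss to -0.78 for H2-Ab1. There H2-Ab1 gave 2184, 2023 and 1994 in the P465L pools and from 2452 to 5259.5 with a median of 3934 in the rosiglitazone pools, without overlap. Summed markers of cells that carry these molecules overlapped between the groups. The summed signal of 5 macrophage markers was 30389 to 33326 in the littermates and 30913 to 34739 in the controls, that of 3 B cell markers was 1016 to 1907 and 895 to 1342, and that of 3 dendritic cell markers was 1082 to 1523 and 925 to 1505.5. Csf1r was the brightest of the macrophage markers and weighed most in their sum. The dendritic cell markers Itgax and Flt3 were under the level needed for testing. Among the macrophage markers C1qa, a complement subunit, fell by 0.51 ± 0.13. Cd68 was at -0.56, Adgre1 (F4/80) at -0.02, Csf1r at 0.13 and Mrc1 at 0.28, none of them called. The part of cell content in the MHC class II result was not tested. Of 23 genes on a longer macrophage list, 2 fell (Aif1 by 0.93 ± 0.26 and C1qa) and none rose, with a median of -0.21. Leaving out an array gave 0 or 1 call on this list.

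Of 13 tested MHC class I genes 1 was called, H2-M3, which presents formylated peptides: it gave 1408, 1856 and 1524 against 2519, 2868 and 2488 (-0.70 ± 0.12; adjusted p = 0.00108). The list's median was -0.31, with 12 of 13 members below 0.

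Interferon-induced genes were lower as well. Of 28 tested, 9 fell and none rose, 25 lay below 0, and the median was -0.44. The 5 largest of the called falls were in GTPases that interferon-γ raises: Irgm2, Iigp1, Igtp, Ifi47 and Gbp3. Irgm2 gave 831, 586 and 890.4 in the littermates and 2655, 1943 and 3308 in the controls (-1.67 ± 0.19; 3.19-fold lower; adjusted p = 1.61e-05). Igtp gave 1462, 2118 and 1462 against 4657, 2599 and 4989.8 (-1.21 ± 0.20; adjusted p = 0.000883). Pool B was the lowest control for both. Their genes are neighbours on chromosome 11, and their promoters are shown because GAAANNGAA, a core of the element that interferon-activated factors bind, stands in both within a run of 29 identical bases. Both are on the plus strand, for Irgm2 at chr11:58214827-58214976 and for Igtp at chr11:58199406-58199555, with the match in capitals.
Irgm2: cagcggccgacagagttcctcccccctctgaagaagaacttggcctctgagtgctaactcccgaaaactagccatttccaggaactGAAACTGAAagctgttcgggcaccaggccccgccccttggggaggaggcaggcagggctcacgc
Igtp: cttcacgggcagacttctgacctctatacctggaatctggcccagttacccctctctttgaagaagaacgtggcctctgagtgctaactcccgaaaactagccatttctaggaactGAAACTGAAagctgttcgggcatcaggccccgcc
The match began at position -64 in Irgm2 and -34 in Igtp. Searched on both strands, this motif was in 12 of the 23 tested list members with a promoter in the table, among them 3 of 6 called ones (Gbp3, Igtp and Irgm2). It was in 340 of 8982 tested genes (3.79%) and in 1299 of 32851 promoters (3.95%).

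Ifi47, another of these GTPases, gave 898, 935 and 883 against 2137, 1805 and 2665 (-1.20 ± 0.22; adjusted p = 0.00326). Gbp3, a guanylate-binding protein, gave 558, 616 and 744 against 1337, 1166 and 2163 (-1.15 ± 0.24; adjusted p = 0.00649). The littermate pools of Ifi47 lay within a narrow band below all controls. The other 4 calls were genes typical of type I interferon: Rtp4 (-0.80), the protease Usp18 (-0.76), Xaf1 (-0.71) and Oasl2 (-0.70). For Xaf1 a second probe set gave 2232.5, 2754 and 2626 in the littermates and 199, 153 and 233 in the controls, a difference of 3.29, so the direction of that gene is unsettled. Rsad2, an antiviral enzyme, stood at 0.72, Ifi27l2a at 0.49 and Oasl1 at -1.37, none of them called. All 9 were also lower in P465L than in rosiglitazone pools, 6 of them by a call, and there the list's median was -0.26. Leaving out an array gave 5 calls (without control pool C) to 10 calls.

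Genes of leukocyte recruitment made a smaller group. Of 14 adhesion molecules and chemokines, 3 fell: the chemokine Ccl8 by 1.02 ± 0.30, the platelet and endothelial selectin Selp by 0.78 ± 0.20, and Icam1, the endothelial ligand of leukocyte integrins, by 0.52 ± 0.11. Icam1 had the tightest pools, 2548, 2717 and 2808 against 3851, 3983 and 3837 (adjusted p = 0.00538). None of the 3 was called between P465L and rosiglitazone pools, where Icam1 differed by -0.06. Leaving out an array gave from 1 call (without control pool A or littermate pool A) to 5. A few immune genes went the other way. S100a9, a calcium-binding protein of neutrophils, rose from 1082, 1254 and 874 to 3499.5, 2597 and 2751 (1.41 ± 0.29; adjusted p = 0.0069). Il7r, the interleukin-7 receptor, rose by 1.03 ± 0.30, with levels of 493, 653 and 583 against 119, 429 and 256.1. The receptor partner Ly86, on the B cell list, fell by 0.74 ± 0.14, while Cd79a differed by 0.21 ± 0.28 (adjusted p = 0.716).

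**Figure D4:**
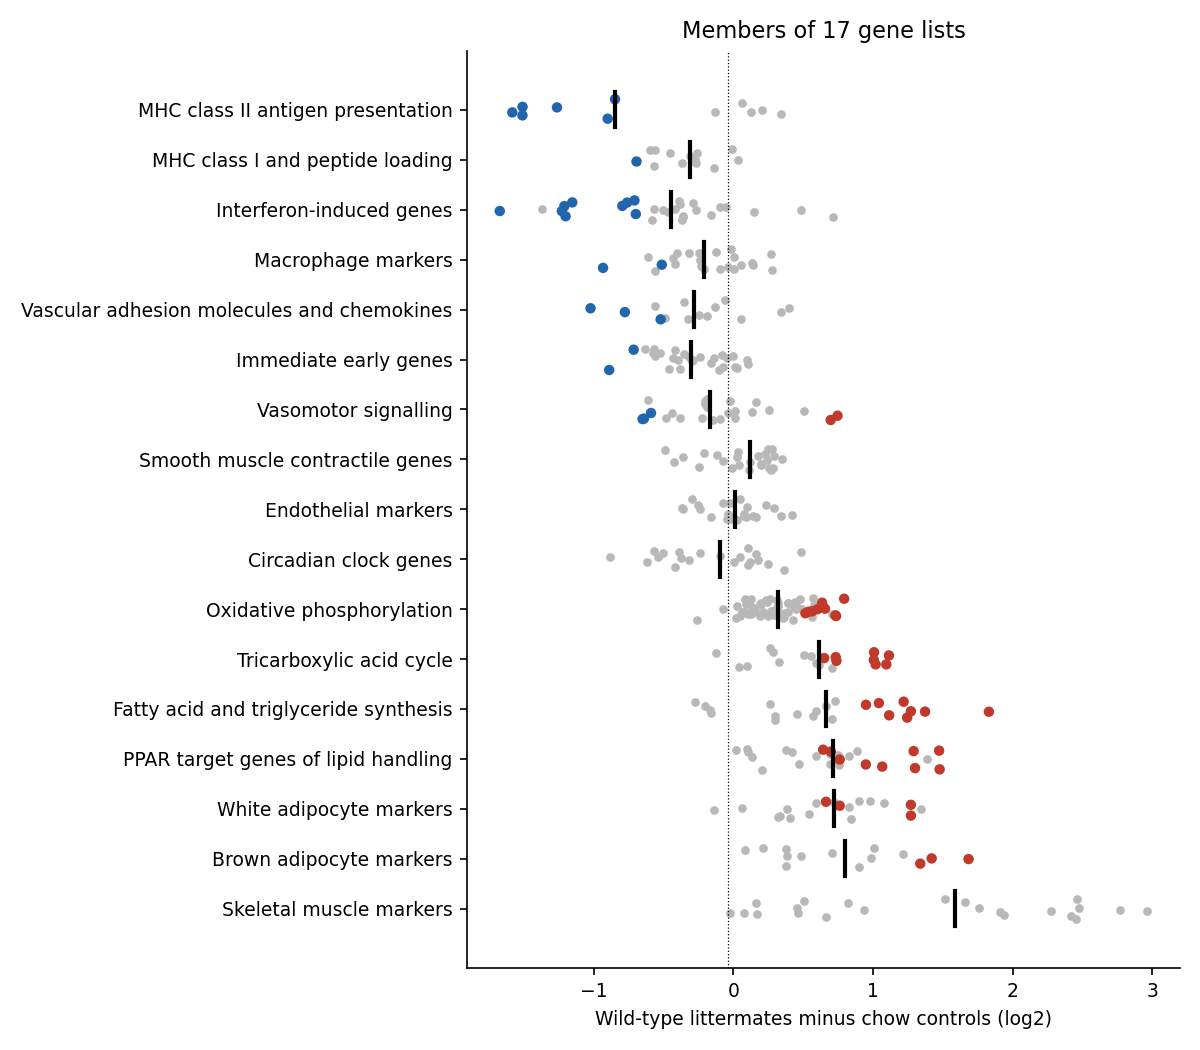
Members of 17 gene lists by their difference between wild-type littermates and chow controls (x axis, log2), 1 point a gene; red and blue points were called higher and lower, grey points were not called, black bars are list medians and the dotted line is the median of all genes (-0.04). MHC class II and interferon-induced calls lie on the left, the lipid and mitochondrial calls on the right, and skeletal muscle genes spread to 2.96 without a call.

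PPAR target genes of lipid handling were higher in the wild-type littermates. Of 27 tested, 9 rose and none fell, all 27 lay above 0, and the median was 0.71. Cd36, the fatty acid uptake receptor, gave 17709, 20561 and 10319 in the littermates and 6551, 6916 and 3775 in the controls (1.47 ± 0.32; 2.78-fold; adjusted p = 0.00916). Control pool C was the dimmest of all, and the groups did not overlap. Rbp7, a retinol-binding protein of fat and endothelium, gave 1470.5, 794 and 777 against 319.8, 447 and 187 (1.48 ± 0.42; adjusted p = 0.0386). Pdk4, the kinase that switches off pyruvate dehydrogenase, gave 12989.9, 16060 and 7455 against 5941, 5531 and 3077 (1.30 ± 0.38; adjusted p = 0.0442). Littermate pool B was the brightest for Cd36 and Pdk4, pool A for Rbp7. Angptl4, which restrains lipoprotein lipase from outside the cell, rose by 1.29 ± 0.31 (adjusted p = 0.017) and Plin2, a lipid droplet coat protein, by 1.07 ± 0.26 (adjusted p = 0.0182). Fabp4, which carries fatty acids inside fat cells, gave 111950, 128028 and 96734 against 75843, 78852 and 47529 (0.76 ± 0.21; adjusted p = 0.0328). The remaining calls were the β-oxidation genes Etfdh (0.95) and Acadm (0.70) and catalase, Cat (0.64).

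Fat cell markers moved with them. Of 19 white adipocyte genes 4 rose (Thrsp by 1.27, Agpat2 by 1.27, Fabp4 and Car3 by 0.66), with a median of 0.72. Of 14 brown adipocyte genes 3 rose, with a median of 0.80. Ucp1, the heat-producing uncoupling protein of brown fat, gave 45589, 64778 and 28270.3 against 22673, 15924 and 6878 (1.68 ± 0.46; 3.21-fold; adjusted p = 0.0334). Its levels varied widely within both groups, and control pool C was again the lowest. Otop1, an ion channel, rose by 1.42 ± 0.41 and Elovl3, a fatty acid elongase of brown fat, by 1.34 ± 0.34. Adiponectin, Adipoq, was not called: it gave 46689, 63458 and 38244 against 31584, 33892 and 18239.6 (0.84 ± 0.31; adjusted p = 0.102). Summed over Adipoq, Cidec, Lep and Retn the signal was 44941 to 72964 in the littermates and 23199.5 to 42443 in the controls. Over the brown fat markers Ucp1, Cidea, Cox8b and Elovl3 it was 79424 to 163301 against 30610.3 to 70046. The part of fat cell content in the PPAR target result was not tested.

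These calls rested on particular pools. Without control pool C, no PPAR target, white adipocyte or brown adipocyte gene was called, and without littermate pool B none was either. The medians stayed above 0 when any array was left out, at 0.55 to 0.91 for PPAR targets and 0.50 to 1.03 for brown adipocyte genes. Between P465L and rosiglitazone pools the PPAR target list had a median of -0.45, with 9 genes lower and 1 higher. That contrast sets a dominant negative Pparg mutation against a PPARγ agonist. For PPAR targets it therefore cannot show whether the difference between the untreated groups recurs. Rbp7 was at -1.30 there (adjusted p = 0.0125), Elovl3 at -1.65 and Fabp4 at -0.73.

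Of the receptors themselves, Ppara rose and Pparg was not called. Ppara, the receptor of fatty acid oxidation, gave 2832, 2519 and 1683 against 880.2, 1085 and 704 (1.32 ± 0.33; adjusted p = 0.02). Its other probe sets gave 0.48, with overlapping pools, and 0.78, without overlap. Pparg gave 2727, 2035 and 1634 against 1526, 1339 and 726 (0.83 ± 0.39; adjusted p = 0.209). By the brightest probe set, the lowest littermate pool was above the highest control pool for both genes. Ppard was at -0.42 ± 0.23 and the partner receptor Rxra at -0.38 ± 0.15, neither called. The corepressor Nrip1 rose by 0.47 ± 0.13 (adjusted p = 0.036). Neither Ppara nor Nrip1 was called without control pool A, control pool C or littermate pool B.

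Genes of fatty acid and triglyceride synthesis were higher in the littermates. Of 21 tested, 8 rose and none fell, with a median of 0.67. Between P465L and rosiglitazone pools, 10 were higher and none lower (median 0.33), and 7 of the 8 were among them. Genotype and drug also differ there, and their part was not tested. The rosiglitazone median for Fasn (15729), Acly (8831), Acaca (4217) and Me1 (5852) was under every chow control pool. It lay within the control range for Elovl6 (1521), Pnpla3 (615) and Mlxipl (1073), and above it for Agpat2 (13011). Elovl6, which lengthens palmitate, gave 9112, 9404 and 3475 in the littermates and 1707, 2391 and 1497 in the controls (1.83 ± 0.44; adjusted p = 0.0159), and 1.57 by its next probe set. Littermate pool C was well under pools A and B but above every control. Acly, which makes cytosolic acetyl-CoA, gave 35684, 43222 and 23630.3 against 13240.4, 13794 and 15674 (1.22 ± 0.24; adjusted p = 0.0043). Fasn, fatty acid synthase, gave 56130.2, 65040.4 and 45789.8 against 27361, 30991 and 22492 (1.04 ± 0.29; adjusted p = 0.0337). In each gene the groups were apart, and Fasn was bright in all 6 pools. Pnpla3, a lipid droplet hydrolase, rose by 1.37 ± 0.27, from 597, 856 and 587 to 2279.8, 2135 and 1296. The carbohydrate-sensing factor Mlxipl (ChREBP) rose by 1.24 ± 0.31, acetyl-CoA carboxylase Acaca by 1.12 ± 0.26 and malic enzyme Me1 by 0.95 ± 0.21. Agpat2, which makes phosphatidic acid, rose by 1.27 ± 0.33 but was at -0.21 between P465L and rosiglitazone pools (adjusted p = 0.626). Srebf1, the sterol-linked activator of this pathway, was at -0.16 and not called. Leaving out an array gave 2 calls (without littermate pool B) to 9, with medians of 0.53 to 0.75. Of 18 cholesterol synthesis genes only Srebf2, the sterol-sensing activator of that pathway, was called, lower by 0.46 ± 0.14, and the median was 0.06.

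Mitochondrial genes were higher in the littermates too. Of 19 tricarboxylic acid cycle and pyruvate dehydrogenase genes 8 rose and none fell, with a median of 0.61. Pdhb, a subunit of pyruvate dehydrogenase, gave 35162, 43863 and 24326 against 16661, 16297 and 13526 (1.11 ± 0.25; adjusted p = 0.00997). Dld, the subunit it shares with other dehydrogenases, gave 8559, 9818 and 4886 against 3616, 4078 and 3253 (1.02 ± 0.22; adjusted p = 0.00997), and Suclg1, Idh3a and Dlat rose by 1.10, 1.01 and 1.01. Littermate pool B was the brightest for Pdhb and Dld, and control pool C the dimmest. Of 64 oxidative phosphorylation genes 9 rose, 62 lay above 0, and the median was 0.32. Called members included Uqcr10 (0.79), Uqcrc2 (0.74), Ndufs1 (0.73), Cycs (0.66) and Sdha (0.56). Between P465L and rosiglitazone pools 6 of the 9 kept their sign, and none was called with the same sign. Of the 8 called cycle genes, 7 kept their sign there and 1 of them was called. The medians there were -0.02 for the cycle genes and -0.16 for oxidative phosphorylation. Without littermate pool B no gene of either list was called, and without control pool C or littermate pool A no oxidative phosphorylation gene was. The summed brown fat markers given above were higher in the same pools, and their part in these differences was not tested.

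**Figure D5:**
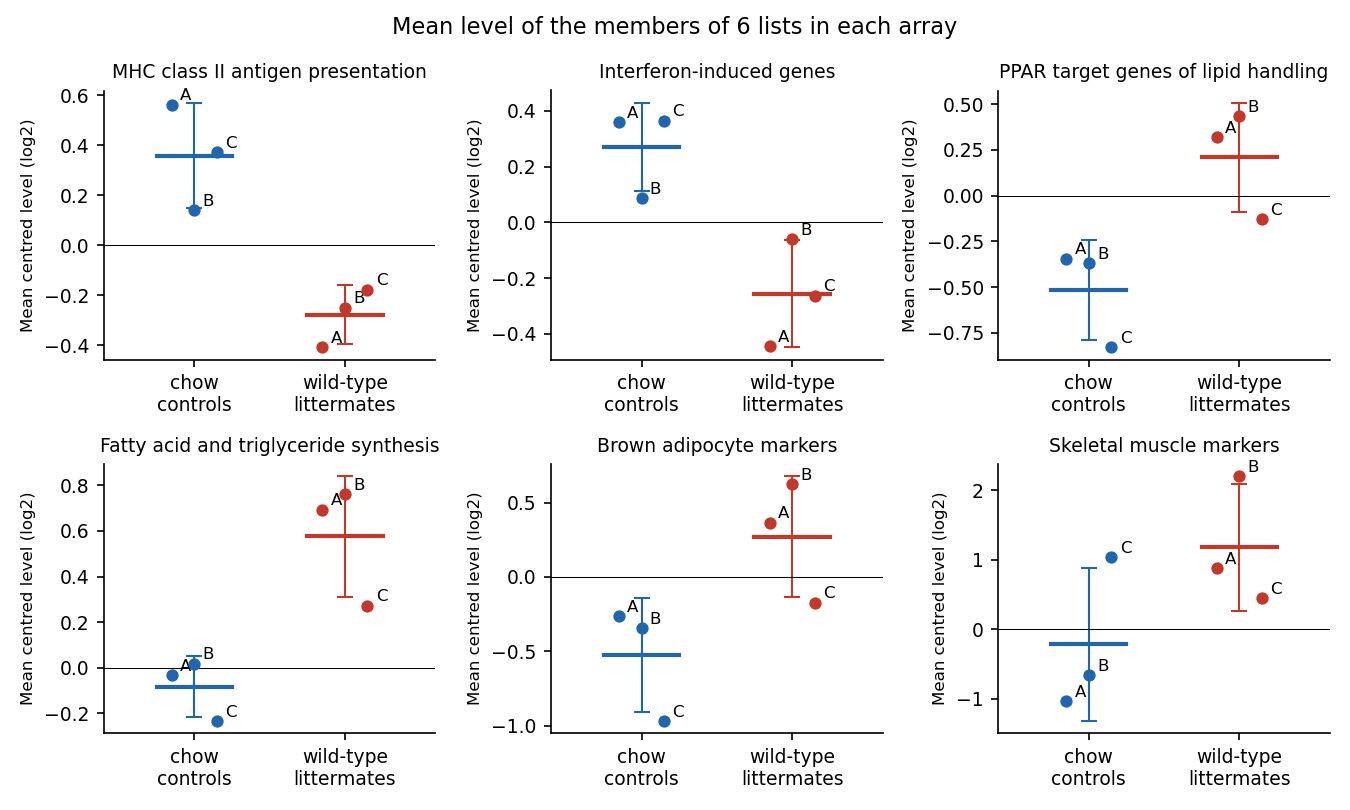
Mean level of the tested members of 6 gene lists in each pool (y axis, log2, each gene centred on its mean over all 20 arrays); letters name the pools, wide bars are group means and thin bars the SD (n = 3). The groups are apart for MHC class II, interferon-induced, PPAR target, lipid synthesis and brown adipocyte genes, with control pool C lowest in the last 3, while skeletal muscle genes are high in control pool C and overlap.

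Of genes of the vessel wall, none of 25 smooth muscle contractile genes and none of 24 endothelial genes was called by limma. At an unadjusted p under 0.05 by limma there were 8 of the first and 3 of the second, against 2493 of all 11081 genes tested. That share is also the base for the later counts at this unadjusted p. The median was 0.12 for smooth muscle genes, which turned to -0.04 under quantile normalization, and 0.01 for endothelial genes. Acta2, smooth muscle actin, gave 135172, 149486 and 142114 against 117968, 117116 and 100906 (0.35 ± 0.12; adjusted p = 0.0881). Myh11, its myosin heavy chain, differed by 0.24 ± 0.13 and the endothelial marker Pecam1 by -0.04 ± 0.13. Of 18 fibroblast and adventitial genes 3 rose and 1 fell, but leaving out any 1 array left 0 or 1 call on that list. Decorin, Dcn, gave 81625, 101230 and 96848 against 76777, 75967 and 69206 (0.33 ± 0.10; adjusted p = 0.0437), but a second probe set gave -0.29. The collagen-binding proteoglycan Fmod rose by 0.36 ± 0.09, and the Wnt-binding Sfrp4 fell by 0.35 ± 0.10. Mfap4, a microfibril protein on the fibroblast and elastic fibre lists, rose by 0.47 ± 0.13, and fibulin-2, Fbln2, by 0.66 ± 0.15, with its second probe set at -0.46. Of 21 collagen chains 1 rose, the vascular chain Col8a1, by 0.54 ± 0.16. Control pools gave 990.3, 1434 and 1327 and littermate pools 1808, 1835 and 1840.1.

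Vasomotor genes split. Of 24 tested, 3 fell and 2 rose, with a median of -0.17. Ace, which makes angiotensin II, gave 6293, 5749 and 5371 in the littermates and 8892, 8655 and 9703 in the controls (-0.64 ± 0.14; adjusted p = 0.0114). Pde5a, the phosphodiesterase that degrades cyclic GMP, gave 8490.5, 8285 and 9452 against 13191, 12577 and 15648 (-0.65 ± 0.15; adjusted p = 0.0154). The pools of both genes were apart by more than their spread. Kcnma1, the large-conductance potassium channel, fell by 0.59 ± 0.15. Agtr1a, the main angiotensin II receptor, rose from 639, 622 and 624 to 1049.7, 1047 and 1095 (0.70 ± 0.19; adjusted p = 0.0352). Ednrb, the endothelin B receptor, rose from 893, 950 and 643 to 1232, 1548 and 1501 (0.75 ± 0.17; adjusted p = 0.0115). Agtr1a had the tightest pools of the 5, though its call was lost whenever an array was left out, and without control pool C none of the 5 was called. Ace, Pde5a, Agtr1a and Ednrb were also called between P465L and rosiglitazone pools, at -0.58, -0.46, 0.63 and 0.64. Endothelial nitric oxide synthase, Nos3, stood at -0.02 and Edn1, the endothelin-1 gene, at 0.50, neither called.

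Immediate early genes respond within minutes to stimuli, tissue handling among them. Of 28 tested, 2 fell and none rose, which is near the 6.49% called over all genes tested. On this list 24 lay below 0 and the median was -0.31, against 6201 of 11081 and -0.04 over all genes. Nr4a1 fell from 6110.5, 6950 and 9715 to 4319, 4259.9 and 3442 (-0.89 ± 0.22; adjusted p = 0.0192) and Btg2 from 5199.7, 6704 and 4949.7 to 3471, 3436 and 3195 (-0.71 ± 0.16; adjusted p = 0.0125). The groups did not overlap in either gene, as in 714 of the 719 called genes. Fos was at -0.40 ± 0.27 and not called. The mean centred level of the list was -0.27, -0.38 and -0.31 in littermate pools A, B and C and -0.05, 0.02 and -0.03 in the control pools. None of 21 circadian clock genes was called by limma, and 4 had an unadjusted p under 0.05. Dbp differed by 0.00 ± 0.28, Arntl by 0.10 ± 0.41 and Per1 by -0.54 ± 0.18 (adjusted p = 0.0778). None of 16 glucocorticoid-induced genes was called either (4 at an unadjusted p under 0.05), with a median of -0.04. The chaperones of mitochondria Hspa9 (0.59) and Hspd1 (0.46) rose, and Pdia4, a disulfide isomerase of the endoplasmic reticulum, fell by 1.23 ± 0.17 alone among 23 genes of that compartment.

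Skeletal muscle genes had the highest median of the 41 lists, 1.59, with 21 of 22 above 0 and none called by limma (10 at an unadjusted p under 0.05). Acta1, skeletal muscle actin, gave 8551, 24315 and 5423 in the littermates and 543, 954 and 10595 in the controls (2.47 ± 0.98; adjusted p = 0.133). Control pool C was brighter than littermate pools A and C, so the groups overlapped. The list's median ran from 0.91 to 2.40 when an array was left out, and 4 genes were called without control pool C and 3 without littermate pool C. Of 11 cardiac genes Tnnt2 fell, by 0.84 ± 0.25. Albumin, Alb, gave 674, 4338 and 2481 against 208, 877 and 1412 and was not called (1.47 ± 0.64; adjusted p = 0.178). The globin gene Hbb-b2 rose from 9158, 5255 and 7638 to 13324, 30906 and 16514 (1.39 ± 0.29; adjusted p = 0.00588). It shares sequence with the other adult β-globin gene, so their signals cannot be told apart on the array. Pon1, the plasma paraoxonase made in liver, rose by 1.29 ± 0.29 here and by 2.78 between P465L and rosiglitazone pools.

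Genes described as variable between inbred strains were listed because the strain of the littermates is not given. Of 15 tested, 2 rose and 2 fell, with a median of 0.03. Glo1, the methylglyoxal-detoxifying glyoxalase, gave 13682, 12473 and 9884 against 7095, 7273 and 7630.1 (0.69 ± 0.13; adjusted p = 0.00358). Alad, of haem synthesis, rose by 0.77 ± 0.18, Trim12a fell by 1.14 ± 0.25 with its second probe set at 0.82, and Erdr1 fell by 0.63 ± 0.16. Only Glo1 and Erdr1 were called again between P465L and rosiglitazone pools, at 0.78 and -0.82. Nnt, which carries a known deletion in C57BL/6J mice, gave 5815, 5266 and 6173 against 4508, 4275 and 5681 (0.26 ± 0.14; adjusted p = 0.277), with overlapping pools. The position of the probe set relative to that deletion was not examined, so this level checks nothing about strain. Within 10 Mb of Pparg on chromosome 6, 6 of 123 genes tested were called (4.88%, against 6.49% overall): Adipor2, Bid, Il17re, Ptms, Tnfrsf1a and Usp18. By chromosome the share called ran from 2.56% on chromosome 19 to 9.21% on chromosome 3 among the autosomes. On the X chromosome 15 of 347 genes tested were called (4.32%). Of a list of 7 X- and Y-linked genes none was called by limma (2 at an unadjusted p under 0.05).

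The choice of probe set bears on these values. Another probe set existed for 458 of the 719 called genes. The next brightest probe set of each gene was compared whatever its level, so dim ones count too. Its difference had the same sign in 362 genes and the opposite sign in 96, and was 0.413 times that of the brightest probe set in the median. Of the called genes, Sdc4, Thg1l and Apobec2 had the largest differences with disagreeing probe sets. Thg1l, a tRNA-modifying enzyme, rose by 1.65 ± 0.39 by its brightest probe set with the other at -0.26. Apobec2, a muscle protein of the deaminase family, rose by 1.57 ± 0.27 with the other at -0.27. These other probe sets of Thg1l and Apobec2 were under the level needed for testing, at signals of 210 to 381 and 32.5 to 105. Probe sets with no gene symbol or several were fitted separately, and 98 of 3130 were called (3.13%; 30 higher and 68 lower).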

How the data were processed

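RNA of 20 pools of 8 mouse aortas was measured on Affymetrix arrays. The deposited values are MAS5 signals, intensity estimates on a linear scale for each probe set and array, per the submitters' processing notes; its version is not given in the sources used here. A trimmed mean (2% cut from each end) of every array was 1500.0, so the deposited arrays share a common scale. Nothing in the files gives the depth or detection of a probe set, and the number of arrays limits the precision.

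Of 45101 probe sets, 64 were controls, 34945 carried 1 gene symbol in GEO's platform annotation, 932 several and 9160 none. Each gene was read by its brightest probe set on average, which gave 18193 genes. The offset of 72 is the 20th percentile of all values. Genes were tested where that mean was at or above the median over probe sets (signal about 352), which left 11081. Group means over all 20 arrays were fitted with limma 3.58.1 in R 4.3.3 (trended empirical Bayes, 13 residual and 7.34 prior degrees of freedom, two-sided), so the 7 groups share 1 estimate of the spread. The script was tested on simulated data.

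The text names the 12 largest rises and falls among called genes whose arrays do not overlap, called members of each list with up to 4 others, a fixed set of markers, and the 3 largest calls with disagreeing probe sets. Nos3, Srebf1, Rfxap and Ifi27l2a, the called genes near Pparg and those whose arrays overlap fall outside this rule and were named after their values were seen. The comparison, the 41 gene lists and the named genes were chosen with earlier results of these data known. Alternatives were another offset, filter, probe set rule, normalization, set of arrays, variance model, array weights, a 1.5-fold minimum, a replicate block and leaving out each array. Array letters did not pair the groups: deviations of same-letter pools correlated at 0.10, -0.03 and 0.07. Promoters and coordinates are RefSeq's (GRCm38.p6).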

Additional observations from a re-analysis of the deposited data

How the results depend on the processing

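Of the 719 calls, averaging the probe sets of a gene left 455 genes called, of which 335 were among the 719, and turned the sign of 24; treat at a 1.5-fold minimum left 16. Without each array in turn the count ran from 279 to 620. The share higher was 40.1%, and 27.2% without littermate pool B, 27.6% without control pool C and 56.2% by treat. For P465L minus rosiglitazone the count of 1909 became 3719 with array weights and 35 by treat, and ran from 797 to 2099 without each array in turn. The other alternatives kept both counts within 1.5 times (542 to 1036, and 1408 to 1927). With the array letter as a replicate block 810 and 1927 genes were called, 697 of the 719 among the first; it moved neither count by over 1.5 times. Xaf1 reversed when its probe sets were averaged (1.29, adjusted p by limma 0.00012). Of 114 named called genes, 40 were called without each array in turn, and 11 under every alternative in which they were tested. With 3 pools a group, strain, colony and experiment cannot be told apart. The cause of these changes was not tested.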

Other observations

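Other gene groups showed scattered calls. In insulin signalling, of 19 genes tested, the kinase Akt1 fell by 0.53 ± 0.12 (adjusted p by limma 0.0101) and the transcription factor Foxo3 by 0.54 ± 0.14 (adjusted p 0.0303), with a list median of 0.04. Akt1 gave 5589.5, 4146 and 4918 in littermate pools A, B and C and 6775, 7654 and 6647 in the control pools. Foxo3 was also called lower in P465L than in rosiglitazone pools (-0.62), while Akt1 was not (-0.10). Among 30 glutathione transferase and drug metabolism genes the median was 0.01; Mgst1, a microsomal glutathione transferase bright in fat and liver, rose by 0.74 ± 0.19, with its second probe set at -0.24, and Pon1 was the other call. Catalase was the only call of 22 antioxidant genes (median 0.18). None of 8 complement genes (median -0.02; 1 at an unadjusted p under 0.05) and none of 8 nerve and Schwann cell genes (median -0.10; 0 at that unadjusted p) was called by limma. T and NK cell genes had 1 call of 5, Il7r, and a median of -0.34, against 0.59 between P465L and rosiglitazone pools. The T cell markers Cd3d, Cd3e and Cd3g were all below the level needed for testing. They summed to a signal of 808 to 1351 in the littermates and 394 to 668 in the controls. Cd3d weighed most, at 926, 531 and 572 against 145, 390 and 115. Cd3g gave 375, 200 and 241 against 190, 150 and 200. Cd3e went the other way, at 49.8, 76.8 and 57.0 against 59.8, 128 and 82.3. No direction is given for T cells.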
